A study of Mus musculus with 8 samples.

Results

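A set of 10 genes of insulin signalling was followed in brown adipose tissue, from the receptor Insr through the adaptors Irs1, Irs2 and Irs3, the phosphatidylinositol 3-kinase subunit Pik3r1, the kinases Akt1 and Akt2 and their substrate Tbc1d4 to the glucose transporter gene Slc2a4 and the enzyme gene Pck1. The genes were taken by symbol on GRCm38, and 10 of 10 were found among the 41388 genes counted in each library. RNA was sequenced from brown fat of 8 mice labelled C57BL/6J, kept at room temperature on regular chow. The 4 ANKO mice carried floxed Nampt together with an adiponectin-Cre transgene, whose promoter works in adipocytes of brown and white fat, so other cells of the tissue keep the gene. The 4 WT mice were labelled wild type and flox/flox. The sources used here give neither age nor litter. The question put to the 10 genes is how their transcripts differ in brown fat after loss from adipocytes of Nampt, an enzyme of NAD+ salvage.

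Insulin binds its receptor tyrosine kinase, which phosphorylates the IRS adaptors. These recruit phosphatidylinositol 3-kinase, whose lipid product brings AKT to the membrane, where it is activated. AKT phosphorylates TBC1D4 and so releases vesicles that carry GLUT4, the product of Slc2a4, to the cell surface, and it keeps FOXO transcription factors out of the nucleus. Brown fat is one of the tissues where insulin raises glucose uptake most, and in adipocytes PCK1 (cytosolic phosphoenolpyruvate carboxykinase) makes the glycerol backbone of triglycerides from precursors other than glucose.

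Library totals ran from 5738067 to 49697156 counts, with WT deeper on the whole (ratio of median totals 3.44). The targeted gene Nampt lay at 484 to 571 CPM (counts per 1000000, scaled between libraries by TMM) in WT and at 67.4 to 77.6 CPM in ANKO. Each of the 10 genes had at least 137 counts in each library. For genes with narrow ANKO values, such as Insr and Akt1, counting error is of the order of the spread between mice. The tissue's defining markers were present: 10 brown adipocyte markers summed to 7769 to 15889 CPM in WT and to 1143 to 3861 CPM in ANKO, where 9 of 10 were lower. General adipocyte markers were lower for 11 of 12, and 1, Lep, was higher (21186 to 28536 CPM in WT, 10947 to 14348 CPM in ANKO). Skeletal muscle markers were higher for 14 of 18 (44.7 to 3200.4 CPM in WT, 11803 to 17086 CPM in ANKO), macrophage markers for 12 of 12 (134 to 178 CPM against 1208 to 1722 CPM), lymphocyte markers for 10 of 11 (5.89 to 7.13 CPM against 34.8 to 59.5 CPM), fibroblast markers for 8 of 8 (977 to 1387 CPM against 4302 to 7898 CPM) and Schwann cell markers for 3 of 6 (123 to 144 CPM against 150.4 to 218 CPM). Endothelial markers were lower for 5 of 9 (1301 to 1502 CPM against 909.6 to 1139 CPM). No marker of these lists was at 0 counts in all WT libraries. Within WT the libraries formed 2 sets that no label explains: the chi-square per degree of freedom was 28.2 between WT1 and WT2 and 25.8 between WT3 and WT4, but 71.7 to 115 across. Within ANKO it was 6.95 between ANKO1 and ANKO2 and 13.1 between ANKO3 and ANKO4, against 15.7 to 50.5 across. The lowest value across, 15.7, was between ANKO2 and ANKO3. This measure grows with the depth of a pair, and ANKO2, ANKO3 and ANKO4 had 8700629, 10107921 and 5738067 counts. It therefore does not settle whether ANKO3 was closer to ANKO2 or to ANKO4, and it cannot compare the ANKO split with that of the deeper WT libraries. The first WT set, WT1 and WT2, had a mean muscle marker level of 4.88 and 6.37 on the log2 CPM scale, WT3 and WT4 of 2.001 and 0.700, and the ANKO libraries of 8.42 to 8.88. The part of these differences in the results below was not tested beyond the fits named there, and in whole tissue fewer cells of a type cannot be told apart from less RNA per cell.

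Transcripts of 7 of the 10 genes were lower in ANKO and none passed the test as higher (edgeR quasi-likelihood test, Benjamini-Hochberg adjusted p under 0.05 over 16705 genes). Those that fell were Pck1, Irs2, Irs3, Akt2, Insr, Tbc1d4 and Akt1, in order of the size of the change, while Irs1, Slc2a4 and Pik3r1 did not pass. All 10 genes passed the filter on low counts. Over all genes tested 58.2% were called, 27.6% as lower and 30.6% as higher, and the median log2 fold change was -0.01 against -0.70 for the 10 genes. Among the 2012 genes that averaged 100 CPM or more in WT, a group that leans towards falls because it is chosen on the WT level, 62.3% were lower and 6.61% higher. The median log2 fold change of these 2012 genes was -0.47, nearer to that of the 10 genes than the median of all genes is. Of the 10 genes 9 lie in that group and 6 of the 9 were lower, so the count of falls was near that of other abundant genes. The WT and ANKO libraries did not overlap in 6 of the 10 genes, all lower in ANKO, against 55.0% of all genes tested in either direction and 26.4% as lower. What differed between the genes was the size of the change, from 13.8% of the WT level remaining for Pck1 to 102% for Pik3r1.

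**Figure D1:**
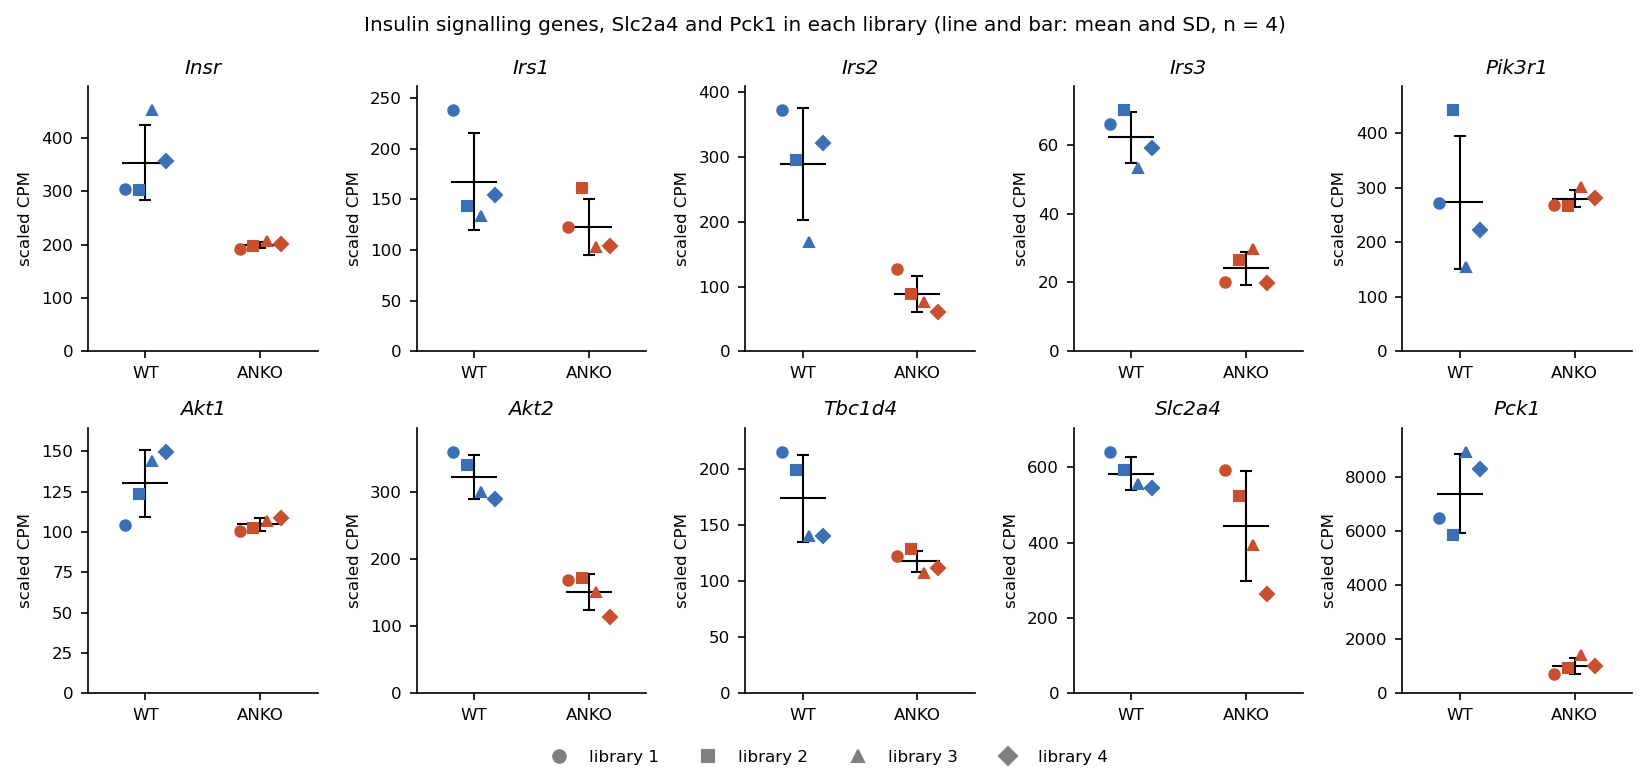
Scaled CPM of the 10 genes in each library on linear axes that start at 0, with WT in blue, ANKO in orange, a symbol for each library number and the group mean and SD (n = 4). The groups are apart for Insr, Irs2, Irs3, Akt2, Tbc1d4 and Pck1, while Slc2a4 in ANKO spreads from 264 to 594 CPM.

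The insulin receptor gene Insr (ENSMUSG00000005534, chromosome 8, 3150922 to 3279617, minus strand) was read at 304, 303, 453 and 357 CPM in WT1 to WT4 and at 193, 198, 207 and 201 CPM in ANKO1 to ANKO4. All ANKO libraries lay below all WT libraries, and they were much closer to each other than the WT libraries were. The mean went from 354 ± 70.3 to 199.6 ± 5.82 CPM (SD, n = 4 per group), a log2 fold change of -0.83 with a standard error (SE) of 0.14 (edgeR adjusted p = 0.000675). With the mean of the muscle markers as a covariate Insr was no longer called (log2 fold change -0.42, SE 0.23, edgeR adjusted p = 0.218). That covariate was 0.700 to 6.37 in WT and 8.42 to 8.88 in ANKO, without overlap, so the fit cannot separate muscle content from genotype. The SE of Insr rose from 0.14 to 0.23 in it. A call kept or lost in this fit, here and below, does not decide the part of muscle in a change. Relative to adipocyte markers the log2 fold change of Insr was -0.09 (SE 0.17, edgeR adjusted p = 0.663).

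The receptor for insulin-like growth factor 1, Igf1r, which shares the downstream adaptors, went the other way. It rose from 19.1 ± 1.33 to 26.6 ± 3.07 CPM (SD, n = 4 per group; log2 fold change 0.47, SE 0.11, edgeR adjusted p = 0.00353). The share of Insr in the summed counts per kb of both receptors was 87.1% to 92.1% in WT and 75.5% to 80.1% in ANKO, with no overlap. Its mean fell by 11.5 percentage points, from 89.3% ± 2.24 to 77.8% ± 1.91 (SD, n = 4 per group; exact two-sided permutation test p = 0.0286, the smallest that 4 against 4 libraries allow, adjusted p = 0.04 over 7 such shares). Without division by gene length the difference was -6.46 points, with the same adjusted p of 0.04 by exact permutation. Igf1, the ligand of that receptor, was higher too, with 36.95 CPM on average in WT and 96.0 CPM after the deletion (edgeR adjusted p = 0.00139). With the muscle covariate neither Igf1r (0.32, edgeR adjusted p = 0.285) nor Igf1 (0.48, edgeR adjusted p = 0.269) was called. The insulin genes Ins1 and Ins2 had 0 counts in all WT libraries and were not tested.

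The 3 adaptor genes differed in how far they moved. Irs2 (ENSMUSG00000038894, chromosome 8, 10986980 to 11008458, minus strand) was read at 372, 295, 169 and 321 CPM in WT1 to WT4 and at 127, 88.9, 76.5 and 60.9 CPM in ANKO1 to ANKO4. WT3 was the lowest WT library and ANKO1 the highest ANKO library, and the groups still did not overlap. The mean went from 289 ± 86.4 to 88.3 ± 28.1 CPM (SD, n = 4 per group), so that 30.6% of the WT level remained (log2 fold change -1.71, SE 0.28, edgeR adjusted p = 0.000566). Irs3 (ENSMUSG00000047182, chromosome 5, 137643032 to 137645714, minus strand), an adaptor of rodent adipocytes, was read at 66.0, 70.003, 53.3 and 59.0 CPM in WT and at 20.2, 26.5, 29.6 and 19.96 CPM in ANKO. The lowest WT library was well above the highest ANKO library, and 38.8% of the WT level remained (log2 fold change -1.37, SE 0.15, edgeR adjusted p = 3.42e-05). Both falls held with the muscle covariate (-1.91 for Irs2 and -1.67 for Irs3) and relative to adipocyte markers (-0.97 and -0.63), with an edgeR adjusted p under 0.05 each time.

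Irs1 (ENSMUSG00000055980, chromosome 1, 82233101 to 82291416, minus strand) was read at 238, 143, 134 and 154 CPM in WT and at 123, 161, 103 and 104 CPM in ANKO. WT1 stood above the rest and ANKO2 lay inside the WT range, so the groups overlapped. The log2 fold change was -0.45 with a 95% interval of -0.90 to 0.01 (edgeR adjusted p = 0.0862), and it was 0.30 relative to adipocyte markers (edgeR adjusted p = 0.158). Without ANKO2 the gene was called lower (log2 fold change -0.61, edgeR adjusted p = 0.0292), as it was without WT3 and WT4 (-0.65, edgeR adjusted p = 0.0491) and without ANKO1 and ANKO2 (-0.71, edgeR adjusted p = 0.0386). The balance of the adaptors differed between the groups beyond their spread. Per kb, Irs1 held 15.8% ± 2.69 of the 3 adaptors' counts in WT and 29.5% ± 4.60 in ANKO (SD, n = 4 per group; exact two-sided permutation p = 0.0286, adjusted p = 0.04). Irs2 held 60.7% ± 5.51 in WT and 47.4% ± 7.60 in ANKO, and Irs3 held 23.5% ± 4.33 and 23.1% ± 5.52. Irs4 had 0 counts in every library of both groups.

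Parts of the start regions of Irs1 and Irs2 are shown because both carry the same 2 short motifs close together. The letters around the motifs differ, and the transcripts of these adaptor genes moved by different amounts. Both stretches come from RefSeq's GRCm38.p6 promoters and are written 5′ to 3′ on the gene's strand, chr1:82291531-82291566 for Irs1 and chr8:11008950-11008985 for Irs2. Capitals mark the E-box CACGTG and the letters TGTTTTG, which resemble the insulin response sequence that FOXO factors bind. In Irs1 the 2 motifs overlap by the letters TG. CACGTG begins 115 bases before the RefSeq start in Irs1 and 44 bases before it in Irs2. Irs1 also holds a TGTTTTG 32 bases before its start, outside the stretch shown.
Irs1: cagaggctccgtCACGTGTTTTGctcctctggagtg
Irs2: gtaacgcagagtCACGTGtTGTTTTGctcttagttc
The longest run of letters common to both is GTCACGTGTT, 10 bases, which 24 of 32817 RefSeq promoters of 300 bases hold on either strand (0.0731%). CACGTG was found in 7.15% and TGTTTTG in 6.29% of those promoters, both strands searched. A match is a description of letters and not a binding site shown by these data.

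Pik3r1 (ENSMUSG00000041417, chromosome 13, 101680563 to 101768217, minus strand) encodes the regulatory subunit that docks the kinase to the IRS adaptors. It was read at 272, 442, 156 and 223 CPM in WT and at 269, 267, 301 and 282 CPM in ANKO. The WT libraries spread widely around the narrow ANKO range, from WT3 at the bottom to WT2 at the top. The log2 fold change was 0.03 with a 95% interval of -0.56 to 0.62 (edgeR adjusted p = 0.924). Its value depended on which WT libraries entered: without WT1 and WT2 it was 0.53 and called (edgeR adjusted p = 0.0212), without WT3 and WT4 it was -0.37 (edgeR adjusted p = 0.144). It was 0.79 relative to adipocyte markers (edgeR adjusted p = 0.0212) and -0.89 with the muscle covariate (edgeR adjusted p = 0.0544). Among the 3 regulatory subunits Pik3r1 held 72.7% ± 5.24 of the counts per kb in WT and 70.7% ± 0.799 in ANKO (SD, n = 4 per group; exact two-sided permutation p = 0.686, adjusted p = 0.686), and the sign of that difference turned without WT2 (0.468 percentage points).

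Of the 9 class I subunits of this kinase tested, 5 were higher and none lower. The catalytic subunits known from leukocytes, Pik3cd and Pik3cg, rose 7.31-fold and 5.23-fold, and the regulatory subunit Pik3r5, which partners Pik3cg, rose 17.0-fold from 2.39 to 40.6 CPM. Pik3cb, which is expressed in most tissues, rose 1.501-fold. Pik3ca, the catalytic subunit most tied to insulin, averaged 120.4 ± 10.2 and 114 ± 2.48 CPM in WT and ANKO (SD, n = 4 per group; log2 fold change -0.08, edgeR adjusted p = 0.427), and its value was 0.66 and called relative to adipocyte markers (edgeR adjusted p = 0.000686) and 0.11 with library totals. Pik3cb was not called with the muscle covariate (0.47, edgeR adjusted p = 0.0511). Macrophage and lymphocyte markers, given above, were higher in the same libraries, and their part in these rises was not tested.

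Akt2 (ENSMUSG00000004056, chromosome 7, 27591552 to 27640826, plus strand), the AKT form tied to glucose uptake in fat and muscle, was read at 359, 339.8, 299.7 and 289.9 CPM in WT1 to WT4 and at 169, 172, 150.3 and 114 CPM in ANKO1 to ANKO4. Every ANKO library was far below every WT library, with ANKO4 the lowest. The mean went from 322 ± 32.7 to 151 ± 26.8 CPM (SD, n = 4 per group), which left 47.0% of the WT level (log2 fold change -1.09, SE 0.15, edgeR adjusted p = 0.000153). It stayed called relative to adipocyte markers, at -0.36 (edgeR adjusted p = 0.0253), and with the muscle covariate, at -1.32 (edgeR adjusted p = 0.00519).

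Akt1 (ENSMUSG00000001729, chromosome 12, 112653821 to 112674884, minus strand), the form expressed in nearly all cells, was read at 104, 123, 144 and 149 CPM in WT and at 100.5, 102, 107 and 109 CPM in ANKO. WT1 lay within the ANKO range, and the fall to 80.3% of the WT level was close to the threshold (log2 fold change -0.32, 95% interval -0.58 to -0.05, edgeR adjusted p = 0.0409), with the sign turned relative to adipocyte markers (0.43, edgeR adjusted p = 0.0233). The call was lost in 7 of 8 fits that left out 1 library, where the change ran from -0.43 to -0.25, with library totals as the scaling (-0.12, edgeR adjusted p = 0.438) and with the muscle covariate (0.04, edgeR adjusted p = 0.892).

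Tbc1d4 (ENSMUSG00000033083, chromosome 14, 101442360 to 101609191, minus strand) encodes the Rab GTPase-activating protein that holds GLUT4 vesicles back until AKT phosphorylates it. It was read at 215, 199, 140.4 and 140.4 CPM in WT1 to WT4 and at 122, 128, 107 and 112 CPM in ANKO1 to ANKO4. WT1 and WT2, the WT libraries with more muscle marker RNA, were the highest, and WT3 and WT4 were just above ANKO2. The mean went from 174 ± 39.0 to 118 ± 9.62 CPM (SD, n = 4 per group; log2 fold change -0.56, SE 0.15, edgeR adjusted p = 0.0101), but the value was 0.19 relative to adipocyte markers (edgeR adjusted p = 0.301). It was -0.83 without WT3 and WT4 (edgeR adjusted p = 0.000529), -0.28 without WT1 and WT2 (edgeR adjusted p = 0.0438) and -1.11 with the muscle covariate (edgeR adjusted p = 0.00346). Scaled by library totals it was -0.39 and not called (edgeR adjusted p = 0.0686). Its relative Tbc1d1, best known from skeletal muscle, rose from 28.2 ± 0.627 to 50.3 ± 6.52 CPM (SD, n = 4 per group; log2 fold change 0.83, edgeR adjusted p = 7.01e-05). The share of Tbc1d4 in the counts per kb of both was 84.7% ± 2.89 in WT and 68.5% ± 3.52 in ANKO (SD, n = 4 per group; exact two-sided permutation p = 0.0286, adjusted p = 0.04). Muscle markers were higher in ANKO too, and their part in the change of this share was not tested.

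**Figure D2:**
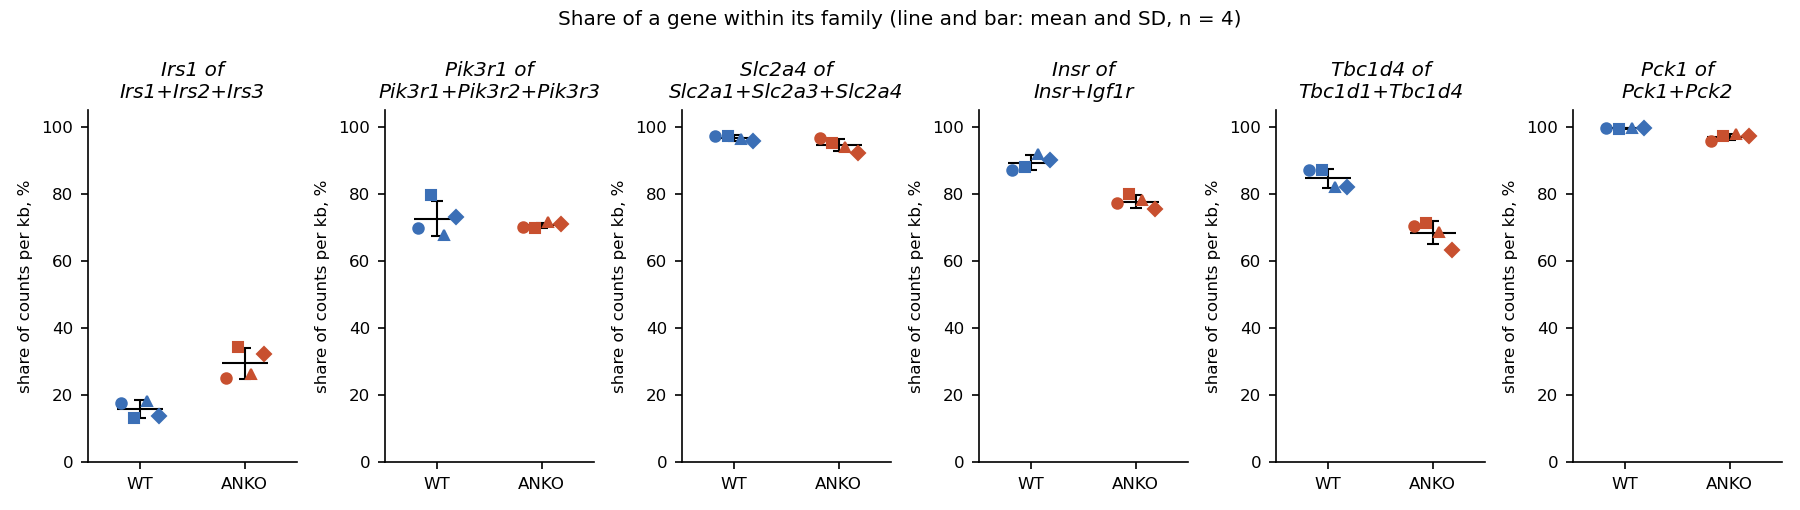
Share of a gene in the counts per kb of its family in each library, in percent on axes from 0, with WT in blue, ANKO in orange and the group mean and SD (n = 4). The groups do not overlap for the shares of Irs1, Insr, Tbc1d4 and Pck1, and they overlap for those of Pik3r1 and Slc2a4.

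Slc2a4 (ENSMUSG00000018566, chromosome 11, 69942539 to 69948188, minus strand), which encodes the insulin-responsive transporter GLUT4 of fat and muscle, was read at 639.8, 593, 555 and 544 CPM in WT1 to WT4 and at 594, 523, 395 and 264 CPM in ANKO1 to ANKO4. ANKO1 lay inside the WT range and ANKO4 far below it, so the spread within ANKO was larger than that within WT. The means were 583 ± 43.3 and 444 ± 145 CPM in WT and ANKO (SD, n = 4 per group), and the difference did not pass (log2 fold change -0.39, 95% interval -0.89 to 0.10, edgeR adjusted p = 0.154). That interval reaches from 54.1% to 107% of the WT level. Relative to adipocyte markers the value was 0.32 (95% interval -0.06 to 0.71, edgeR adjusted p = 0.121), with the muscle covariate -0.49 (edgeR adjusted p = 0.437), and without ANKO4 it was -0.21. Leaving out ANKO1 and ANKO2, which hold the highest Slc2a4 levels of that group, gave -0.84 and a call (SE 0.20, edgeR adjusted p = 0.00893). That pair was left out after the data were seen, on a mistaken reading that their muscle markers were the highest of ANKO, and the value is given because it was computed. Skeletal muscle also expresses Slc2a4. In ANKO1 to ANKO4 the mean log2 CPM was 8.42, 8.53, 8.88 and 8.77 for muscle markers and 9.22, 9.10, 9.17 and 8.86 for adipocyte markers, the latter lowest in ANKO4, where Slc2a4 was lowest too. The part of either in the spread of Slc2a4 was not tested.

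Slc2a4 was the main facilitative glucose transporter transcript of the tissue in both groups. Its share of the counts per kb of Slc2a1, Slc2a3 and Slc2a4 was 96.7% ± 0.812 in WT and 94.6% ± 1.86 in ANKO (SD, n = 4 per group; exact two-sided permutation p = 0.0857, adjusted p = 0.1). ANKO1 was the ANKO library whose share lay inside the WT range. Without it the difference was -2.79 points and passed (exact permutation, adjusted p = 0.0333). The groups no longer overlapped then, so the test had to give its smallest possible p. Slc2a1, the basal transporter GLUT1, was at 13.4 and 14.9 CPM on average in WT and ANKO (log2 fold change 0.15, edgeR adjusted p = 0.446). Slc2a3, the high-affinity transporter GLUT3, was at 7.02 and 10.2 CPM (log2 fold change 0.50, SE 0.59, edgeR adjusted p = 0.489). By counts per kb Slc2a4 ranked 259th of the tested genes in WT and 234th in ANKO.

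Pck1 (ENSMUSG00000027513, chromosome 2, 173153048 to 173159273, plus strand) had the largest change of the 10 genes. It was read at 6465, 5867, 8915 and 8279.8 CPM in WT1 to WT4 and at 704, 950.1, 1403 and 1015 CPM in ANKO1 to ANKO4. Even the lowest WT library lay far above the highest ANKO library. The mean went from 7382 ± 1448 to 1018 ± 289 CPM (SD, n = 4 per group), a 7.25-fold fall that left 13.8% of the WT level (log2 fold change -2.86, 95% interval -3.43 to -2.28, edgeR adjusted p = 1.06e-05). Of the 2012 genes with at least 100 CPM in WT, 20 had a lower log2 fold change. By counts per kb it ranked 19th of the tested genes in WT and 94th in ANKO. The fall held relative to adipocyte markers (-2.11), with the muscle covariate (-2.36) and in all 8 fits that left out 1 library (-3.06 to -2.72). Pck2, the mitochondrial form of the enzyme, averaged 24.7 CPM in WT, and 28.5 CPM in ANKO (log2 fold change 0.21, edgeR adjusted p = 0.0728), and Pck1 held 99.7% ± 0.0897 of the counts per kb of both in WT and 97.1% ± 0.974 in ANKO (SD, n = 4 per group; exact two-sided permutation p = 0.0286, adjusted p = 0.04).

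The 250 bases before RefSeq's start of Pck1 are shown because this gene moved most and its promoter is a textbook target of cAMP and insulin. The sequence is RefSeq's GRCm38.p6 plus strand at chr2:173152823-173153072, written 5′ to 3′. Capitals mark the cAMP response element TTACGTCA, which begins 93 bases before RefSeq's start. The gene as counted begins at 173153048, so the last bases shown lie inside it.
Pck1: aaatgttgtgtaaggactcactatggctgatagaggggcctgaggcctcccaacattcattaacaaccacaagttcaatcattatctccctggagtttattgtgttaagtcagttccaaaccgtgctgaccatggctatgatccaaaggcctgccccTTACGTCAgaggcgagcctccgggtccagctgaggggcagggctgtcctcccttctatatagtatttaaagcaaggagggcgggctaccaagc
TTACGTCA or TGACGTCA was found on either strand in 2.28% of the 32817 promoters. Of the 10 genes 8 had an entry among the RefSeq promoters, with 13 promoters in all, and Pck1 alone of these matched the cAMP response element. The FOXO letters TGTTTAC, present in 3.65% of all promoters, were found in an Akt1 promoter, and the windows of Irs3, Akt2, Pik3r1 and Tbc1d4 matched none of the 4 motifs searched.

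Set side by side per kb of exon, the genes kept Pck1 and Slc2a4 at the top in both groups. In WT the order of mean level in CPM per kb was Pck1 (2153 ± 422), Slc2a4 (168 ± 12.5), Irs2 (71.8 ± 21.5), Akt2 (45.2 ± 4.59), Insr (36.8 ± 7.29), Akt1 (31.8 ± 5.06), Pik3r1 (27.1 ± 12.1), Irs3 (26.6 ± 3.17), Tbc1d4 (22.6 ± 5.08) and Irs1 (18.3 ± 5.23; SD, n = 4 for each). From Irs2 downwards each gene's range overlapped that of the next. In ANKO the order below Slc2a4 was another: Pik3r1 (27.8 ± 1.57), Akt1 (25.5 ± 0.957), Irs2 (21.9 ± 6.98), Akt2 (21.2 ± 3.75), Insr (20.7 ± 0.604), Tbc1d4 (15.3 ± 1.25), Irs1 (13.4 ± 2.98) and Irs3 (10.3 ± 2.04). There too the ranges of neighbours overlapped from Pik3r1 downwards, except for those of Insr and Tbc1d4. Pck1 was at 297 ± 84.4 and Slc2a4 at 128 ± 41.8 CPM per kb in ANKO.

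**Figure D3:**
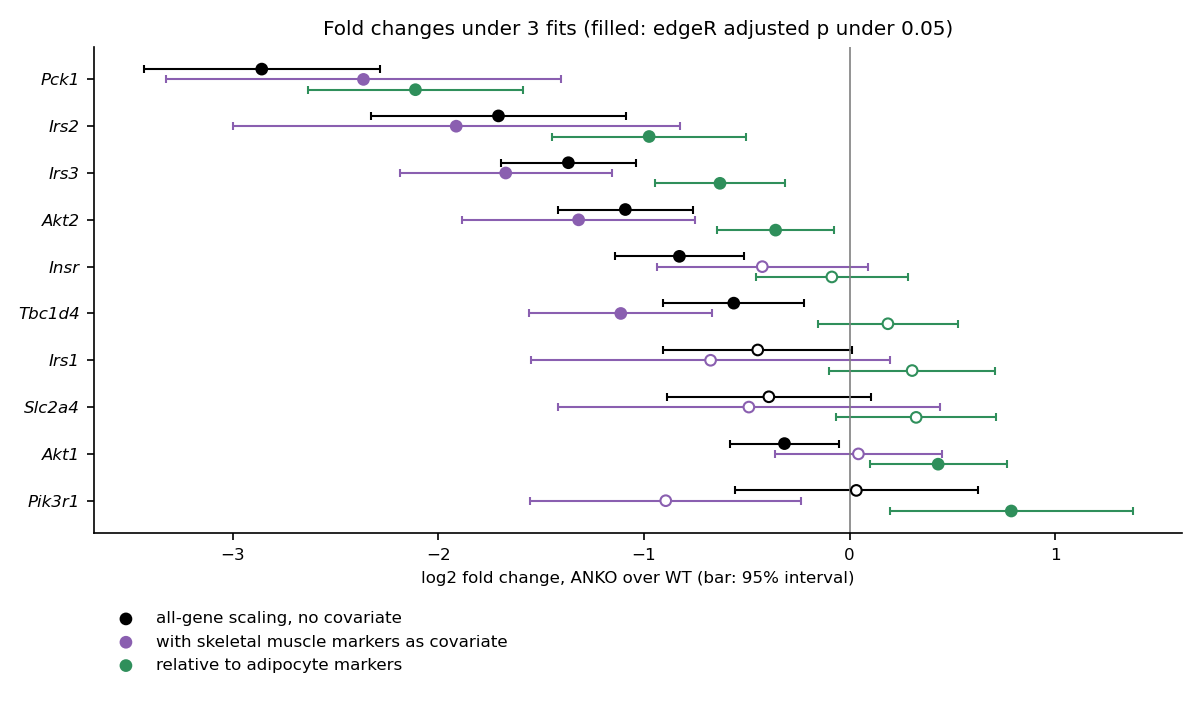
Log2 fold change of ANKO over WT with its 95% interval for the 10 genes in 3 fits: scaled to all genes (black), with the muscle markers as a covariate (purple) and relative to adipocyte markers (green), filled where the edgeR adjusted p is under 0.05. Pck1, Irs2, Irs3 and Akt2 are filled and below 0 in each fit, while Irs1, Akt1, Tbc1d4 and Slc2a4 lie below 0 in the first and above 0 relative to adipocyte markers.

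Of the 3 fits plotted, the one relative to adipocyte markers compares the change of each gene with that of those markers. Relative to the mean of 12 adipocyte markers the median log2 fold change of all genes tested moved from -0.01 to 0.73, and 93.3% of the called genes were higher, against 52.5% with scaling to all genes. In that fit 4 of the 10 genes were lower (Pck1, Irs2, Irs3 and Akt2) and 2 higher (Pik3r1 and Akt1). Insr, Irs1, Tbc1d4 and Slc2a4 were not called there. Of all 16705 genes tested 797 were lower and 11096 higher in the same fit. With the muscle covariate 5 of the 10 were lower (Pck1, Irs2, Irs3, Akt2 and Tbc1d4) and none higher, against 1602 lower and 2188 higher among all genes tested. Scaling by library totals alone moved the median of all genes to 0.17 and the share of higher calls to 66.7%. It kept 5 of the 10 genes lower, where 2940 of all genes tested were lower and 5897 higher. None of the 10 genes turned its sign.

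Of 146 other genes on lists of this pathway 139 had enough counts to be tested, of which 44 were higher and 49 lower in ANKO (edgeR adjusted p under 0.05), with a median log2 fold change of -0.08 against -0.01 over all genes. Of all genes tested 30.6% were higher and 27.6% lower. The lean to lower calls stayed with the scaling factors of DESeq2, at 38 higher and 51 lower. It turned to 50 higher and 46 lower with the upper quartile and to 55 and 41 with library totals. Relative to adipocyte markers the counts were 92 and 12. With the muscle covariate 28 were higher and 20 lower. The list medians below come from scaling to all genes, and no list was tested as a whole.

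Among 14 receptor adaptors tested 5 were higher and 6 lower (median log2 fold change -0.18). Besides Irs2 and Irs3, Sh2b1, which enhances receptor signalling, fell 1.996-fold, while the general adaptor Grb2 rose 2.24-fold from 17.1 to 38.3 CPM and Dok1, a docking protein of blood cells, rose 6.09-fold from 2.67 to 16.4 CPM. Among 18 inhibitors of the pathway 8 were higher and 7 lower (median 0.11). The lipid phosphatase Inpp5d, best known from leukocytes, rose 4.04-fold and Inpp4b, a lipid phosphatase of another type, 3.54-fold. Socs1, a feedback inhibitor of cytokine and insulin receptors, went from 0.664 to 3.16 CPM. The pseudokinase gene Trib1 fell 2.90-fold. Scaling to adipocyte markers left 8 adaptors higher and 2 lower, with Sh2b1 not called (-0.25, edgeR adjusted p = 0.0797), and 12 inhibitors higher and 1, Trib1, lower. Macrophage markers were higher in the same libraries, as given above, and their part was not tested.

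Of 20 AKT substrates and mTORC1 genes 10 were lower and 4 higher (median -0.26). Pde3b, the phosphodiesterase through which insulin lowers cAMP in adipocytes, fell 2.86-fold from 836 ± 110.0 to 292 ± 22.4 CPM (SD, n = 4 per group; edgeR adjusted p = 1.05e-05). The translation repressor gene Eif4ebp2 fell 1.75-fold and the glycogen synthase kinase gene Gsk3a 1.69-fold, while the transcription factor gene Foxo3 rose 1.87-fold. Relative to adipocyte markers the balance of this list turned to 12 higher and 2 lower (median 0.48): Pde3b stayed lower (-0.78, edgeR adjusted p = 0.000499), while Eif4ebp2 (-0.08) and Gsk3a (-0.03) were not called. In GLUT4 vesicle traffic 9 of 25 genes were lower and 5 higher (median -0.17). Rhoq, the small GTPase TC10, fell 1.68-fold, Stxbp3, which binds the syntaxin of GLUT4 vesicle fusion, rose 1.61-fold, and Doc2b, a calcium sensor of exocytosis, went from 0.423 to 3.41 CPM. In the adipocyte-scaled fit 19 genes of this list were higher and no fall kept its call (edgeR; median 0.56), and with the muscle covariate 3 were higher and 1 lower. Rhoq was called in neither fit (-0.02 and -0.56), and Stxbp3 was not called with the muscle covariate (0.35).

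Genes that phosphorylate glucose moved in both directions. Of 14 glucose transporters and hexokinases tested 7 were higher and 2 lower (median 0.67). Hk2, the insulin-regulated hexokinase of fat and muscle, fell 1.89-fold, from 999.8 ± 191 to 528 ± 173 CPM (SD, n = 4 per group; log2 fold change -0.92, edgeR adjusted p = 0.0108). It was not called relative to adipocyte markers (-0.22, edgeR adjusted p = 0.379), where 10 genes of the list were higher and neither fall kept its call, nor with the muscle covariate (-0.49, edgeR adjusted p = 0.472). Hk1 rose 2.27-fold, and Hk3, a hexokinase of blood cells, rose 36.2-fold from 1.08 to 38.8 CPM. Of 13 transcription factors known to act on Slc2a4 or on adipocyte genes with it, 7 were lower and 1 higher (median -0.54). Ebf1 fell 2.39-fold and Mef2a, which binds the Slc2a4 promoter, 1.696-fold. Mef2c was the 1 higher gene, up 3.79-fold, and it is also a factor of muscle and blood cells. With adipocyte scaling 4 were higher and 3 lower, and Mef2a was called neither there (-0.02) nor with the muscle covariate (-0.47).

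FOXO target genes were called in both directions. Of 16 tested 8 were lower and 6 higher (median -0.53). Pck1, Irs2 and Insr belong to the lower ones, as does Pdk4, which blocks pyruvate entry to the TCA cycle and fell 2.68-fold from 2592 ± 527 to 967 ± 168 CPM (SD, n = 4 per group; edgeR adjusted p = 0.000195), a call lost with the muscle covariate (-0.81, edgeR adjusted p = 0.096). The growth arrest gene Gadd45a rose 7.53-fold from 2.35 to 17.5 CPM and the transcriptional regulator gene Cited2 3.21-fold. The glyceroneogenesis list, to which Pck1 belongs, had 7 of 12 genes lower and 1 higher (median -0.79). Aqp7, the glycerol channel of adipocytes, fell 2.58-fold and Pdk2 2.23-fold, while the aspartate aminotransferase gene Got1 rose 2.64-fold. Scaled to adipocyte markers, 8 FOXO targets were higher and 6 lower, and 4 genes of glyceroneogenesis were higher and 5 lower.

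**Figure D4:**
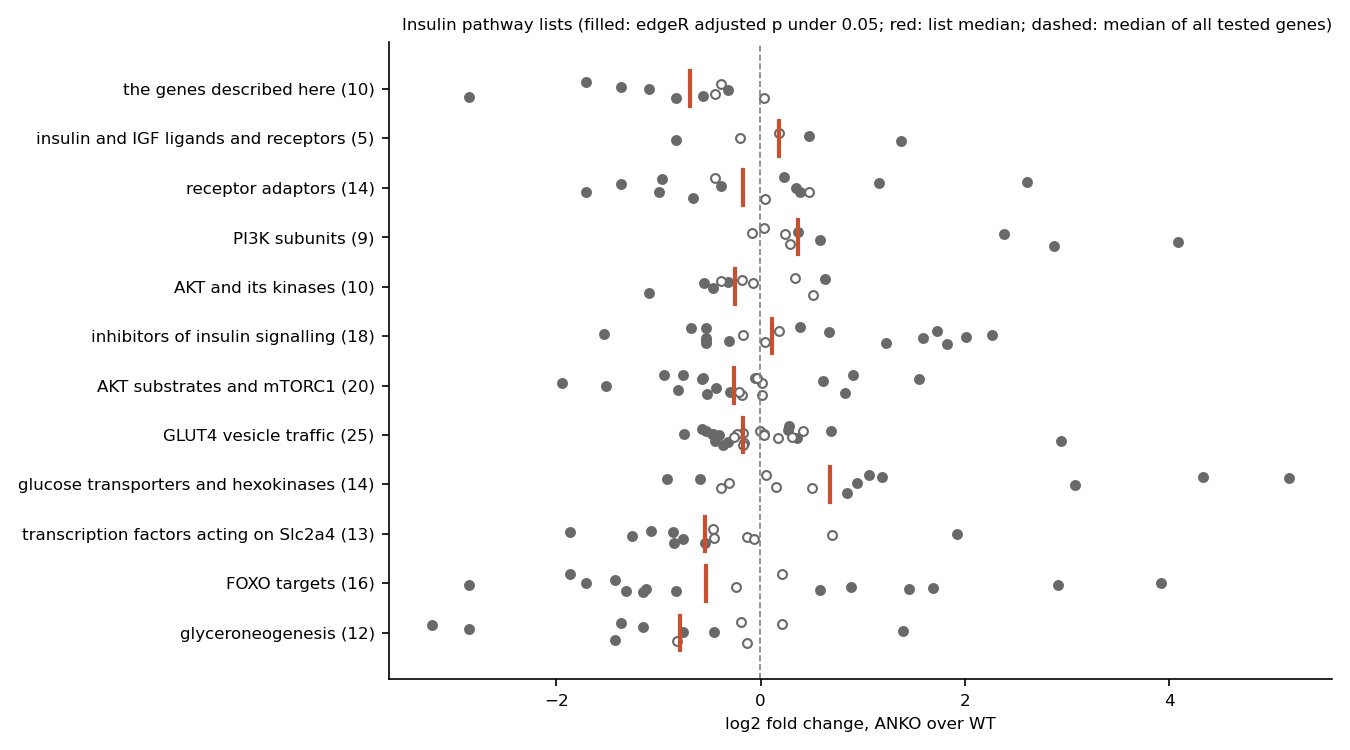
Log2 fold change of ANKO over WT for each tested gene of the pathway lists (number tested in brackets), filled where the edgeR adjusted p is under 0.05, with the list median in red and the median of all tested genes dashed. Lists with several genes far to the right are those of PI3K subunits and of glucose transporters and hexokinases, and the median of the genes described here lies at -0.70. Relative to adipocyte markers the median of all genes moves to 0.73.

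The genes with the most similar course over the 8 libraries were found by the root mean square difference of log2 CPM, each profile centred on its own mean, among 10790 protein-coding genes of at least 5 CPM. Nearest to Slc2a4 were Gbe1, the glycogen branching enzyme (difference 0.09), Tkfc, a triose kinase (0.09), and Mmab, an enzyme of cobalamin metabolism (0.10). Nearest to Irs1 were Mecom (0.14), Rassf9 (0.15) and E130311K13Rik (0.15). Nearest to Pck1 were Slc25a42, the mitochondrial coenzyme A carrier (0.22), Trim67 (0.24) and the targeted gene Nampt (0.24). Slc25a42 went from 504 to 64.4 CPM. These values describe likeness over 8 libraries that share the same genotype split and nothing more.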

How the data were processed

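Ribosomal RNA was removed from total RNA of brown fat by Ribo-Zero Gold, as the labels' protocols say. Alignment used STAR 2.0.4b and counting used featureCounts 1.45 (GRCm38), as given in the submitters' processing notes. The sources used here name no annotation release, strand setting or multi-mapping rule. The authors deposited a whole-number read count per gene, a CPM (counts per 1000000 of the table) and an RPKM (that CPM per kb of exon), and both were recomputed from the deposited counts to within 1e-09. Only counts entered the tests. Symbols came from GENCODE M21, which matched 40340 of 41388 genes, and glycerol kinase was matched by its RefSeq synonym. The 355 rRNA rows (0.801% to 3.53% of counts) were left out. In the deepest and the shallowest library 3 counts are 0.0604 and 0.523 CPM, for counting error only. The antisense gene Gm16180 inside Insr had at most 41 counts per library. Replicates are 4 mice per group, and libraries of a group differed by more than sampling noise (chi-square per degree of freedom at least 6.95).

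Testing used edgeR 4.0.16 in R 4.3.3: filterByExpr, TMM, robust quasi-likelihood, no covariate, Benjamini-Hochberg over 16705 genes. Standard errors came from the F statistic and 95% intervals from its t distribution. Shares used exact two-sided permutation tests adjusted over 7 shares. Of these, 1 share is not reported here. The covariate was the mean log2 CPM (prior count 2) of 18 muscle markers, and the adipocyte scaling used 12 markers. Other alternatives were 3 scalings, 2 filters, DESeq2 1.42.0, limma-voom 3.58.1, a replicate block, each library left out, protein-coding genes alone and stricter thresholds. Leaving out WT1 and WT2, WT3 and WT4 or ANKO1 and ANKO2, and thinning, were added after seeing the data; the ANKO pair was picked on a mistaken reading of its muscle markers and is kept because it was run. The gene test was tested on simulated data with few changed genes, as many raised as lowered. That does not test the scaling where as many genes differ as here. Genes and lists were chosen with earlier results of these data known. Each of the 10 genes is named, and up to 3 called genes per list and direction by smallest p, relatives of the 10 genes and the 3 nearest patterns could be named. Others are introduced as chosen after their values were seen. Figures used matplotlib 3.10.9.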

Additional observations from a re-analysis of the deposited data

How the results depend on the processing

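The count of genes lower in ANKO, 7 of 10, was 4 relative to adipocyte markers and 4 when a log2 fold change of at least 1 was asked for. Among all genes tested 797 and 1209 were lower in these fits. With 1 library left out the count ran from 6 to 7 of the 10. The count higher, 0, was 2 relative to adipocyte markers and 1 without WT1 and WT2, where 11096 and 5677 of all genes tested were higher. The number of all genes called, 9726, was 3790 with the muscle covariate, 4786 with a log2 fold change of at least 1, 5540 after thinning to the lowest library total, and 8942 to 10467 with 1 library left out. Relative to adipocyte markers the log2 fold change turned to 0.43 for Akt1, 0.30 for Irs1, 0.32 for Slc2a4 and 0.19 for Tbc1d4, and with the muscle covariate that of Akt1 turned to 0.0432. That of Pik3r1 turned to -0.017 with no filter on low counts, -0.89 with the muscle covariate, -0.37 without WT3 and WT4, and ran from -0.17 to 0.36 with 1 library left out, negative without WT3, WT4 (-0.06) or ANKO3 (-0.0064). Without ANKO1 and ANKO2, 8 of the 10 genes and 3971 of all genes tested were lower. Slc2a4 (-0.84) and Irs1 (-0.71) were then called and Akt1 (-0.28) was not. The cause of these changes was not tested. The share of Pik3r1 in its family turned from -1.93 to 0.247 percentage points without WT1 and WT2 and ran from -3.51 to 0.468 with 1 library left out, while the other 5 shares given here kept their sign in each alternative run. The share of Slc2a4 ran from -2.79 to -1.31 points and passed without ANKO1, the ANKO library inside the WT range. The shares of Irs1, Insr, Tbc1d4 and Pck1 passed in all 8 fits that left out 1 library (exact permutation, adjusted p 0.0333 to 0.04). Their groups did not overlap, so each of these tests had to give its smallest possible p, and the passes add no further evidence. Without division by length the share of Insr moved from -11.5 to -6.46 points and that of Pik3r1 to -1.15. Without a pair of libraries a share has no test.

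The replicate block left 7 of the 10 genes lower and changed none of their calls. Deviations of same-numbered libraries had correlations of 0.114, -0.013, 0.0747 and -0.053, against -0.127 to 0.124 for other pairs of libraries. They do not show a pairing of the mice by number, but so few values cannot exclude one. Depth limits low genes most in ANKO4.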

Other observations

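Genes outside the naming rule, chosen after their values were seen, also fell. Gk (listed as Gyk), the glycerol kinase that lets adipocytes reuse glycerol, was read at 303, 498, 1274 and 1054 CPM in WT1 to WT4 and at 77.4, 92.2, 108 and 59.0 CPM in ANKO1 to ANKO4. The groups did not overlap, and WT3 and WT4 were well above WT1 and WT2 (log2 fold change -3.22, SE 0.45, edgeR adjusted p = 0.000329). Foxo1, the FOXO factor most tied to insulin action in fat, was read at 73.8, 166, 252 and 214 CPM in WT and at 37.9, 36.1, 62.9 and 46.8 CPM in ANKO. WT1 was the lowest WT library and still above ANKO3 (log2 fold change -1.94, SE 0.36, edgeR adjusted p = 0.00185), but the call was lost with the muscle covariate (-1.17, edgeR adjusted p = 0.166).

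Within ANKO, Hk2 was at 679, 633, 507 and 292 CPM in ANKO1 to ANKO4, the same order of libraries as for Slc2a4 (594, 523, 395 and 264 CPM) and Irs2 (127, 88.9, 76.5 and 60.9 CPM). Over the WT libraries the order of Hk2 was another, with 753 CPM in WT1, 956 in WT2, 1189.8 in WT3 and 1100.5 in WT4. With 4 libraries in a group no relation was tested.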
